A study of Caenorhabditis elegans with 18 samples.

Results

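The cytosolic ribosomal protein genes of Caenorhabditis elegans were taken as all genes of the count table whose WormBase symbol starts with rpl- (large subunit) or rps- (small subunit) followed by a number. The rule uses names only and gave 78 of 23368 genes, 47 for the large subunit and 31 for the small subunit. Of these, 77 passed the filter on low counts and were tested, 46 for the large and 31 for the small subunit. The exception, rpl-42, had 4 counts in all, and these came from replicate 3 of nhr-45 in antimycin.

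A cytosolic ribosome is built from ribosomal RNA and 1 copy of nearly every ribosomal protein, so cells make these proteins in closely matched amounts, and growing cells spend a large part of their transcription on them. The small subunit reads the messenger RNA and the large subunit joins the amino acids. Most ribosomal proteins of C. elegans come from a single gene, but a few have paralogs, such as rpl-11.1 and rpl-11.2 or rpl-25.1 and rpl-25.2. In the germ line of this animal the X chromosome is largely silent, and genes used there lie mostly on the autosomes.

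RNA was sequenced from whole early adults of 3 genotypes, raised from L1 larvae on plates of E. coli HT115. The plates held either the solvent DMSO alone or 0.3 µM antimycin A, which blocks complex III of the mitochondrial respiratory chain. The genotypes were the standard strain N2 (WT) and strains with the allele tm1307 of nhr-45 or gk1005 of nhr-178, genes for nuclear hormone receptors, which are transcription factors. The 6 groups are therefore WT DMSO, WT antimycin, nhr-45 DMSO, nhr-45 antimycin, nhr-178 DMSO and nhr-178 antimycin, each with 3 libraries from pools of at least 1000 animals. The alleles affect every cell of the animal, and a bulk library of whole animals cannot tell fewer cells of a type from less RNA per cell. Replicates are called biological in the series text, without saying whether they came from separate cultures, so p-values reflect only the variation among these libraries.

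The shallowest library, replicate 2 of nhr-45 antimycin, held 1772887 counts, and the deepest, replicate 3 of WT DMSO, held 9488037. Replicate 1 of WT antimycin came second lowest with 3143437. No 2 libraries of a group agreed within sampling noise: chi-square divided by its degrees of freedom was 5.68 to 18.9 over 18 pairs, and each library was counted once. Gene-level counts do not show which part of a gene was read, so the alleles were not checked by them: nhr-45 was at 3.33 to 7.57 CPM (counts scaled to a common library size) in its own mutants and at 4.51 to 8.11 in WT. The gene nhr-178 had at most 1.56 CPM in any library. Levels are CPM after TMM scaling, given as mean ± SD over 3 libraries.

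Ribosomal protein genes took nearly the same part of the counts in every library. Their share of all counts was 7.24%, 6.97% and 7.52% in WT DMSO and 7.62%, 7.25% and 7.02% in WT antimycin. It was 6.17%, 7.02% and 7.24% in nhr-45 DMSO and 7.55%, 7.29% and 7.35% in nhr-45 antimycin. In nhr-178 it was 7.76%, 7.18% and 6.98% with DMSO and 6.91%, 7.07% and 6.84% with antimycin. The lowest value of all was replicate 1 of nhr-45 DMSO and the highest replicate 1 of nhr-178 DMSO, so the 2 extremes are both DMSO libraries of mutants.

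**Figure D1:**
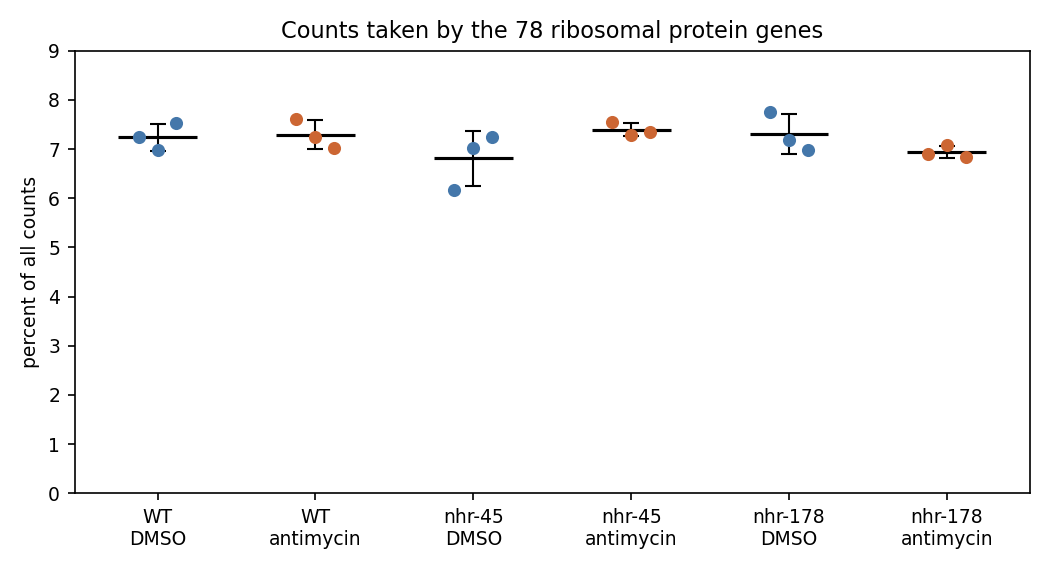
Percent of all counts taken by the 78 ribosomal protein genes in each library, by group; points are libraries (blue DMSO, orange antimycin), bars are the mean and whiskers the SD of 3 libraries. All 18 libraries lie between 6.17% and 7.76%.

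Summed over the 78 genes, the level was 74027 ± 3342 CPM in WT DMSO (SD, n = 3) and 73360 ± 3924 in WT antimycin, a ratio of 0.991. It was 68937 ± 6035 in nhr-45 DMSO and 72128 ± 2994 in nhr-45 antimycin, a ratio of 1.05. The nhr-178 mutants had 72993 ± 3972 with DMSO and 69182 ± 203 with antimycin, a ratio of 0.948. Of the 7 ratios between groups, 5 came from groups whose libraries overlapped. The other 2 both set nhr-178 antimycin lower, against nhr-178 DMSO and against WT antimycin (0.943), and share those 3 libraries. The gap is narrow: nhr-178 antimycin reached 69406 CPM, and the lowest library was at 69998 in nhr-178 DMSO and 70943 in WT antimycin. As shares of all counts both pairs of groups overlapped, with nhr-178 antimycin up to 7.07% and the others down to 6.98% and 7.02%. Large subunit genes made up 52.1% to 53.6% of the summed level in the group means.

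Single genes of the family spanned a wide range of levels. Per kb of exon, the highest was rpl-41.2, which encodes one of the smallest ribosomal proteins, at a mean of 17730 CPM per kb over the 18 libraries, the highest of all 10981 genes tested. Next came rps-23, whose protein sits at the decoding centre of the small subunit, at 9105 CPM per kb (rank 6 of all genes tested). The large subunit gene rpl-9 followed at 8311 CPM per kb (rank 7). In all, 25 ribosomal protein genes were among the 100 highest genes per kb.

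The 3 lowest tested genes were large subunit genes. The single-exon gene rpl-37 stood at 4.89 CPM per kb and had 158 counts in all libraries together, so its changes are poorly measured. Above it was rpl-24.2, a homolog of a yeast factor for assembly of the large subunit, at 58.6 CPM per kb. The paralog rpl-11.2 was the third lowest at 94.6 CPM per kb. Ribosomal protein genes are short, with a median of 532 bases of exon against 1397 over all genes tested. In the annotation used, 14 share exon bases with another gene of the table and 13 host a small nucleolar RNA. Counting by strand is not stated, so values of overlapping genes are uncertain.

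**Figure D2:**
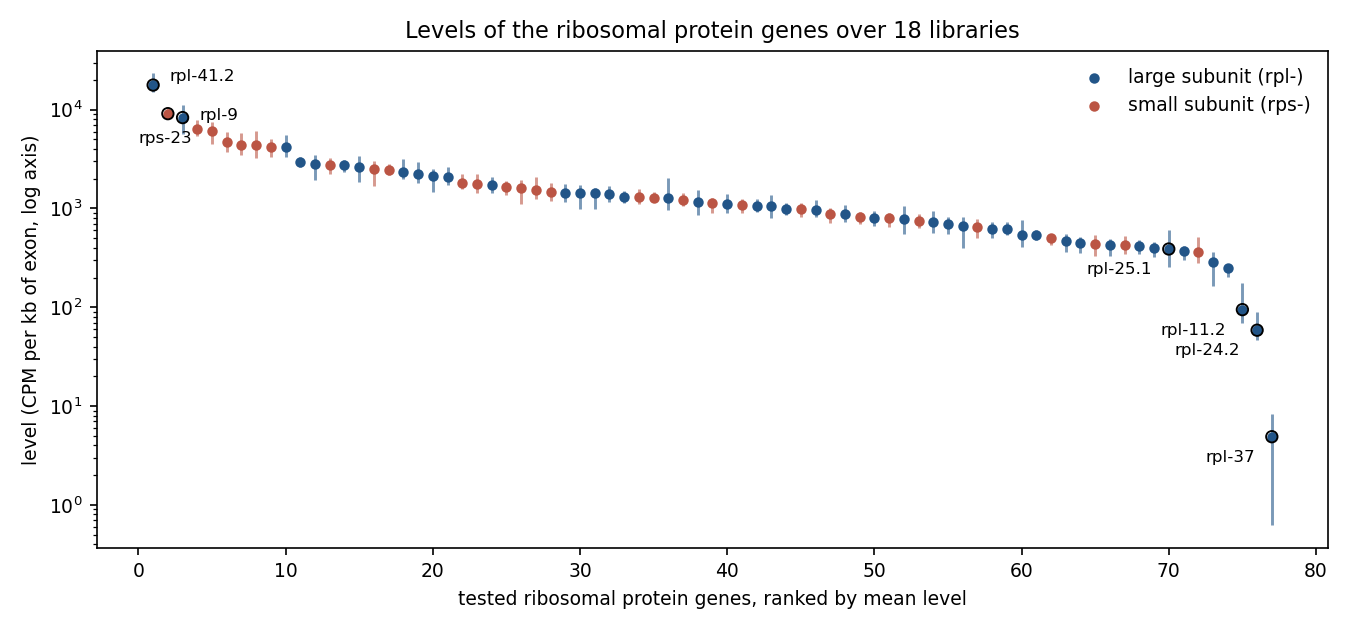
Level of each of the 77 tested ribosomal protein genes in CPM per kb of exon (log axis), ranked from high to low; points are means over 18 libraries, lines span the lowest to the highest library, and circled genes are named. Levels run from 17730 for rpl-41.2 to 4.89 for rpl-37.

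In WT animals, 0 of 77 ribosomal protein genes were called between antimycin and DMSO in edgeR's quasi-likelihood test with Benjamini-Hochberg adjustment over all genes tested, against 3.01% of all genes in either direction. At an unadjusted p under 0.05 there were 8, of which 3 were higher and 5 lower, against 14.5% of all genes, and DESeq2 called 0. The median log2 fold change was 0.01 over the family and 0.01 over all genes. For 76 of 77 genes the 95% interval of the change lay within 2-fold in either direction, and for 68 it lay within 1.5-fold. The exception to the wider bound was rpl-37.

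The largest decrease of the family in WT was that of rpl-35, a large subunit gene named here after its values were seen. Its levels were 1357, 1194 and 1300 CPM in WT DMSO and 860, 922 and 1020 in WT antimycin. The groups did not overlap, and the log2 fold change was -0.46 ± 0.14 (SE; edgeR adjusted p = 0.0837, not called). The abundant gene rpl-9 had 6584, 5340 and 6960 CPM in WT DMSO and 5958, 3548 and 4893 in WT antimycin, with replicate 1 of antimycin inside the DMSO range. Its log2 fold change was -0.39 ± 0.15 (edgeR adjusted p = 0.193). Without replicate 1 of WT antimycin, the change of rpl-9 was -0.57 and was called (edgeR adjusted p = 0.0398).

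In nhr-178 mutants, antimycin called 0 of 77 genes, against 2.7% of all genes. At an unadjusted p under 0.05 there were 5, all lower, against 12.4% of all genes, and DESeq2 called 0. The family median was -0.11 on the log2 scale, with 61 genes below 0 and 16 above, and the median of all genes was 0.00. Intervals of 76 genes lay within 2-fold and of 73 within 1.5-fold. The summed level of the 6 cytosolic ribosomal genes with other symbols, which the name rule leaves out, ranged from 4003 to 4616 CPM with DMSO and from 3897 to 4235 with antimycin, and none of them was called.

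In nhr-45 mutants, antimycin called 3 of 77 genes higher, rpl-11.2, rpl-25.1 and rpl-14, and 0 lower. All genes tested gave 15.2% called higher and 8.33% called lower, and the family's 3 of 77 lies below the first of these shares. The 3 genes belong to the large subunit, and 0 of 31 small subunit genes were called or reached an unadjusted p under 0.05, against 7 of 46 large subunit genes and 35.7% of all genes. The family median was 0.07, and 61 of 77 genes were above 0. Intervals of 74 genes lay within 2-fold, and those of rpl-11.2, rpl-25.1 and rpl-37 did not. The 3 genes nearest the family median stand for the rest: rpl-2, rpl-33 and rps-28 had mean levels of 215, 542 and 615 CPM in nhr-45 DMSO and 225, 567 and 646 in nhr-45 antimycin, and none was called in any comparison.

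**Figure D3:**
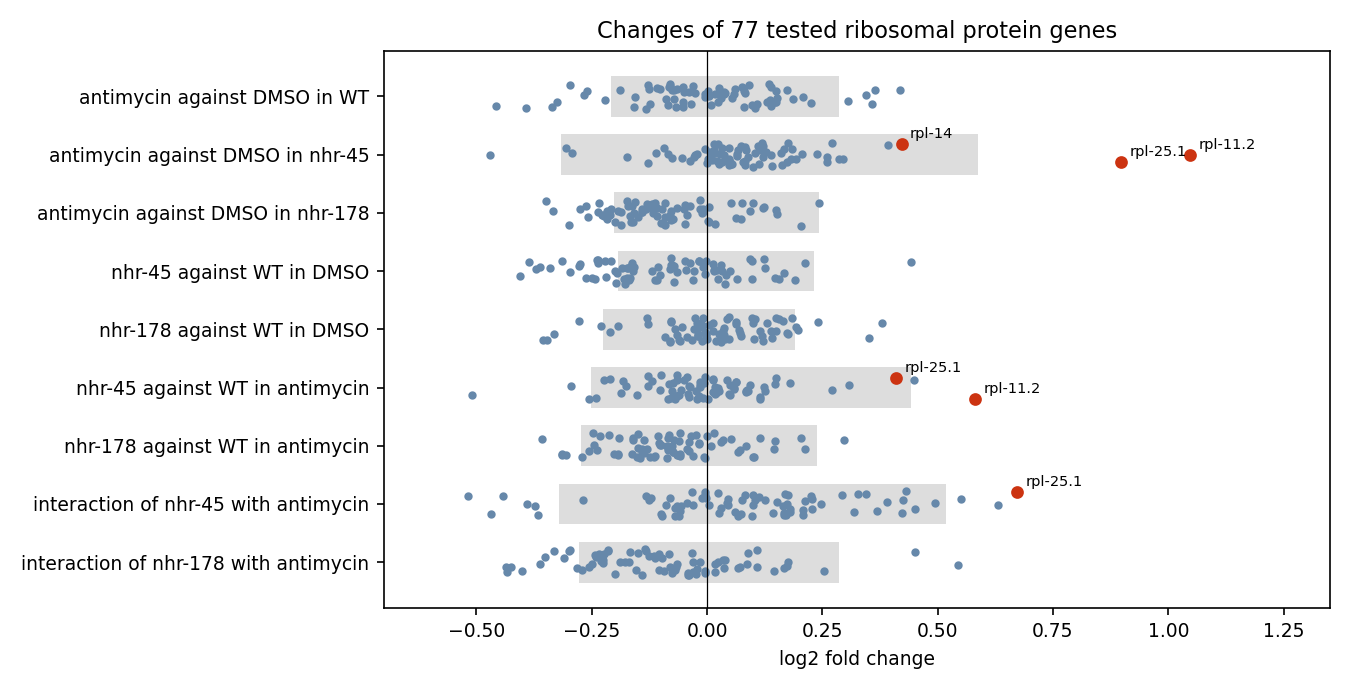
Log2 fold change of each of the 77 tested ribosomal protein genes (points) in 9 comparisons; grey bars span the interquartile range of all genes tested and red points with names passed an adjusted p of 0.05 in edgeR. For nhr-45 in antimycin against DMSO the points cluster near the family median of 0.07, and rpl-11.2 (1.05) and rpl-25.1 (0.90) lie apart from them.

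RPL-11 is the large subunit protein that binds the 5S ribosomal RNA in yeast and mammals, and 1 of its 2 paralogs, rpl-11.2, rose in the treated nhr-45 mutants. The gene rpl-11.2 (WBGene00004423, WBcel235 X:2241738-2242618, minus strand, 4 exon blocks) is on the X chromosome. In nhr-45 DMSO it had 50.7, 51.7 and 60.5 CPM and in nhr-45 antimycin 102, 107 and 127. The groups were far apart, with a 2.07-fold difference (log2 1.05 ± 0.15, SE; edgeR adjusted p = 1.19e-05). In WT it had 59.6, 57.9 and 50.8 CPM with DMSO and 82.3, 76.7 and 66.4 with antimycin. These groups did not overlap either, but the change (log2 0.42 ± 0.15) was not called (edgeR adjusted p = 0.167). In nhr-178 it had 60.6, 58.2 and 58.4 CPM with DMSO and 50.6, 69.8 and 54.4 with antimycin, which overlap (log2 -0.01 ± 0.15). Between genotypes in antimycin, rpl-11.2 was higher in nhr-45 than in WT by 0.58 ± 0.15 on the log2 scale (edgeR adjusted p = 0.00861). That call was lost without replicate 3 of WT antimycin or without replicate 3 of nhr-45 antimycin, with edgeR adjusted p up to 0.0785. The response of nhr-45 exceeded that of WT by 0.63 ± 0.22, an interaction that edgeR did not call (adjusted p = 0.0972) and DESeq2 did (adjusted p = 0.0433).

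The partner rpl-11.1 (WBGene00004422, V:3585312-3586064, minus strand) was the more abundant copy in every library. Its levels were 466, 492 and 611 CPM in nhr-45 DMSO and 430, 426 and 412 in nhr-45 antimycin. All 3 treated libraries lay below the untreated ones, but the change of -0.31 ± 0.13 was not called (edgeR adjusted p = 0.0943). Summed over both copies, the level was 577 ± 82.8 CPM in nhr-45 DMSO and 535 ± 4.01 in nhr-45 antimycin. The treated totals lay within the range of the untreated ones.

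RPL-25 proteins are orthologs of human RPL23A, which lies beside the exit of the peptide tunnel of the large subunit. The X-linked gene rpl-25.1 (WBGene00004438, X:4715178-4715796, plus strand, 3 exon blocks) had 127, 154 and 167 CPM in nhr-45 DMSO and 265, 269 and 298 in nhr-45 antimycin. The 3 treated libraries were the highest of all 18, and the change was 1.86-fold (log2 0.90 ± 0.14, SE; edgeR adjusted p = 1.90e-05). In WT the levels were 166, 155 and 215 CPM with DMSO and 213, 208 and 206 with antimycin, which overlap (log2 0.23 ± 0.14, edgeR adjusted p = 0.47). In nhr-178 they were 166, 139 and 159 with DMSO and 186, 171 and 192 with antimycin, which do not overlap but were not called (log2 0.24 ± 0.14, edgeR adjusted p = 0.509). In antimycin, rpl-25.1 was 0.41 ± 0.14 higher on the log2 scale in nhr-45 than in WT (edgeR adjusted p = 0.0397). That call was lost when any 1 of the 6 libraries was left out, with adjusted p up to 0.148.

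Among the 77 genes, rpl-25.1 alone passed the test of the interaction of nhr-45 with antimycin, against 4.68% of all genes called in that test. Its response in nhr-45 exceeded that in WT by 0.67 ± 0.19 on the log2 scale (edgeR adjusted p = 0.0411). The call held in 2 of the 12 fits that each left out 1 library, those without replicate 2 of WT DMSO or replicate 3 of nhr-45 DMSO, and was lost in the others (edgeR adjusted p up to 0.169). It held in 8 of all 21 alternatives, over which the difference ranged from 0.50 to 0.76. Its partner rpl-25.2 (WBGene00004439, I:8329062-8329647, minus strand) had 283, 300 and 275 CPM in nhr-45 DMSO and 291, 300 and 268 in nhr-45 antimycin. These ranges overlap almost fully, and the change was 0.00 ± 0.12 (95% interval -0.24 to 0.24). The total of both copies was 435 ± 22.5 CPM in nhr-45 DMSO and 564 ± 6.54 in nhr-45 antimycin.

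**Figure D4:**
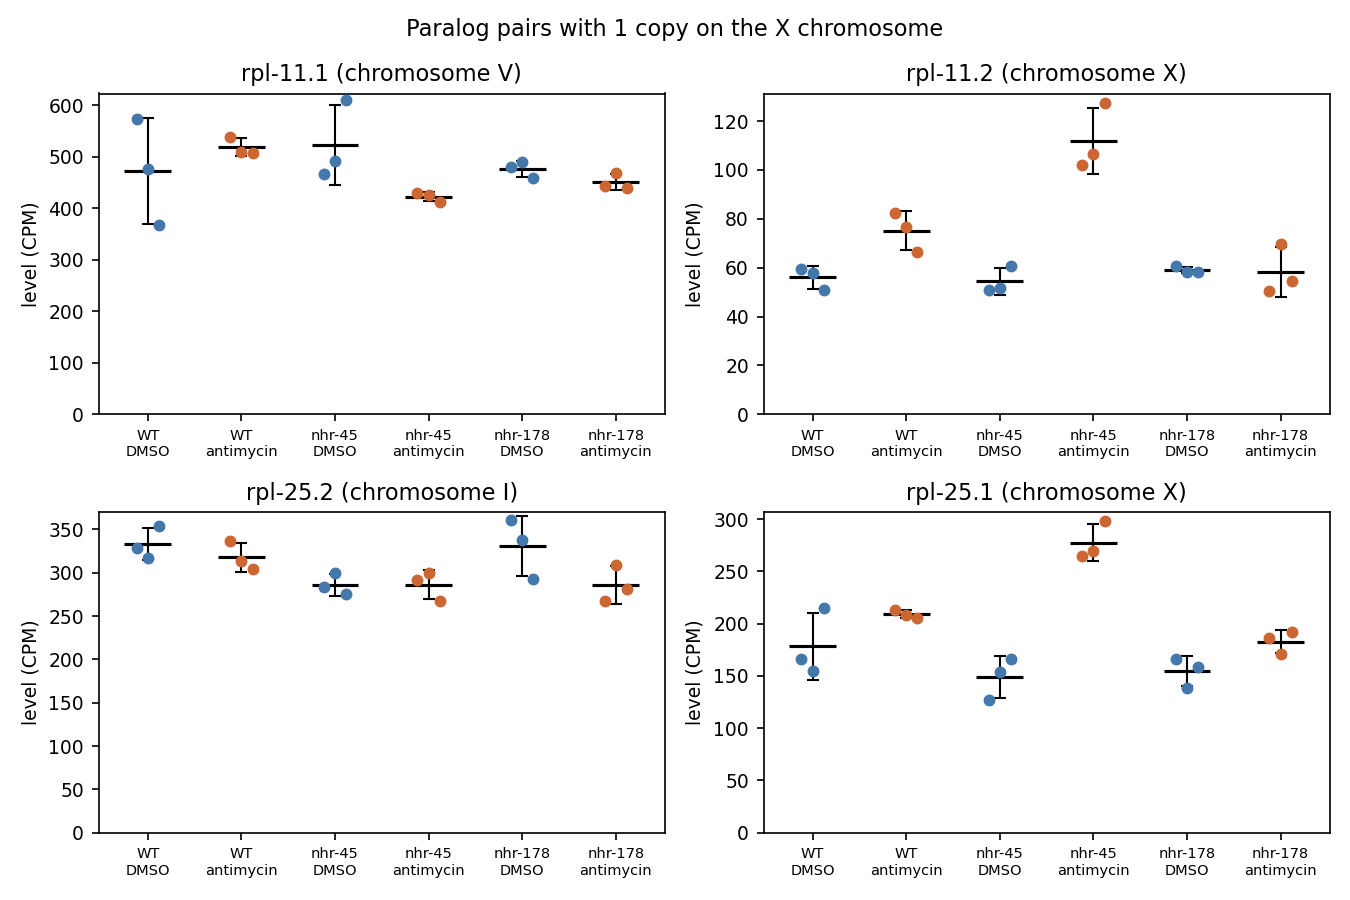
Level (CPM) of the paralogs rpl-11.1, rpl-11.2, rpl-25.2 and rpl-25.1 in each library, by group; points are libraries (blue DMSO, orange antimycin), bars are the mean and whiskers the SD of 3 libraries. In nhr-45 antimycin the X-linked copies stand highest, at 102 to 127 CPM for rpl-11.2 and 265 to 298 for rpl-25.1, and the autosomal copies do not.

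As a share of the counts of their pair, both X-linked copies were higher in all 3 treated nhr-45 libraries than in the untreated ones. The share of rpl-11.2 was 9.82%, 9.53% and 9.02% in nhr-45 DMSO and 19.2%, 20.0% and 23.6% in nhr-45 antimycin. It lay between 9.42% and 13.2% in WT and between 10.2% and 12.96% in nhr-178, whatever the treatment. For rpl-25.1 the share was 30.9%, 34.0% and 37.7% in nhr-45 DMSO and 47.4% to 52.7% in nhr-45 antimycin. It was higher with antimycin in the other genotypes as well, at 39.7 ± 0.814% against 34.7 ± 2.68% in WT and 39.0 ± 3.04% against 31.9 ± 3.04% in nhr-178, with no overlap between the groups.

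Each of these differences reached p = 0.1 in a two-sided exact permutation test, the smallest value that 3 libraries against 3 allow. Over the 28 share tests the Benjamini-Hochberg value was 0.35, so by this test none passed. In replicate 2 of nhr-45 antimycin, the shallowest library, the 95% Wilson interval of the rpl-11.2 share was 17.6% to 22.6% and covers counting error only. How reads that match both copies were assigned is not given in the sources used here, so the split within a pair is uncertain.

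Values of the other paralog pairs follow. For rpl-24.2, with rpl-24.1 as the ribosomal copy, the share was 13.97 ± 1.30% in nhr-45 DMSO and 16.96 ± 3.52% in nhr-45 antimycin, which overlap. Replicate 3 of nhr-45 antimycin, at 21.02%, stood above the other libraries. The level of rpl-24.2 there was 35.5, 38.7 and 52.3 CPM against 27.4, 32.1 and 37.7 with DMSO, and the change of 0.39 ± 0.18 was not called (edgeR adjusted p = 0.12). For rpl-41.1, a neighbour of rpl-41.2 on chromosome I, the share was 5.37 ± 0.501% in WT DMSO and 6.77 ± 0.339% in WT antimycin, with no overlap (exact permutation p = 0.1). In nhr-45 it was 6.41 ± 0.910% and 6.04 ± 1.58%. Neither gene of that pair was called in any comparison. The names rpl-7 and rpl-7A, and rpl-36 and rpl-36.A, share a number but denote different proteins, and none of these 4 genes was called in any comparison.

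**Figure D5:**
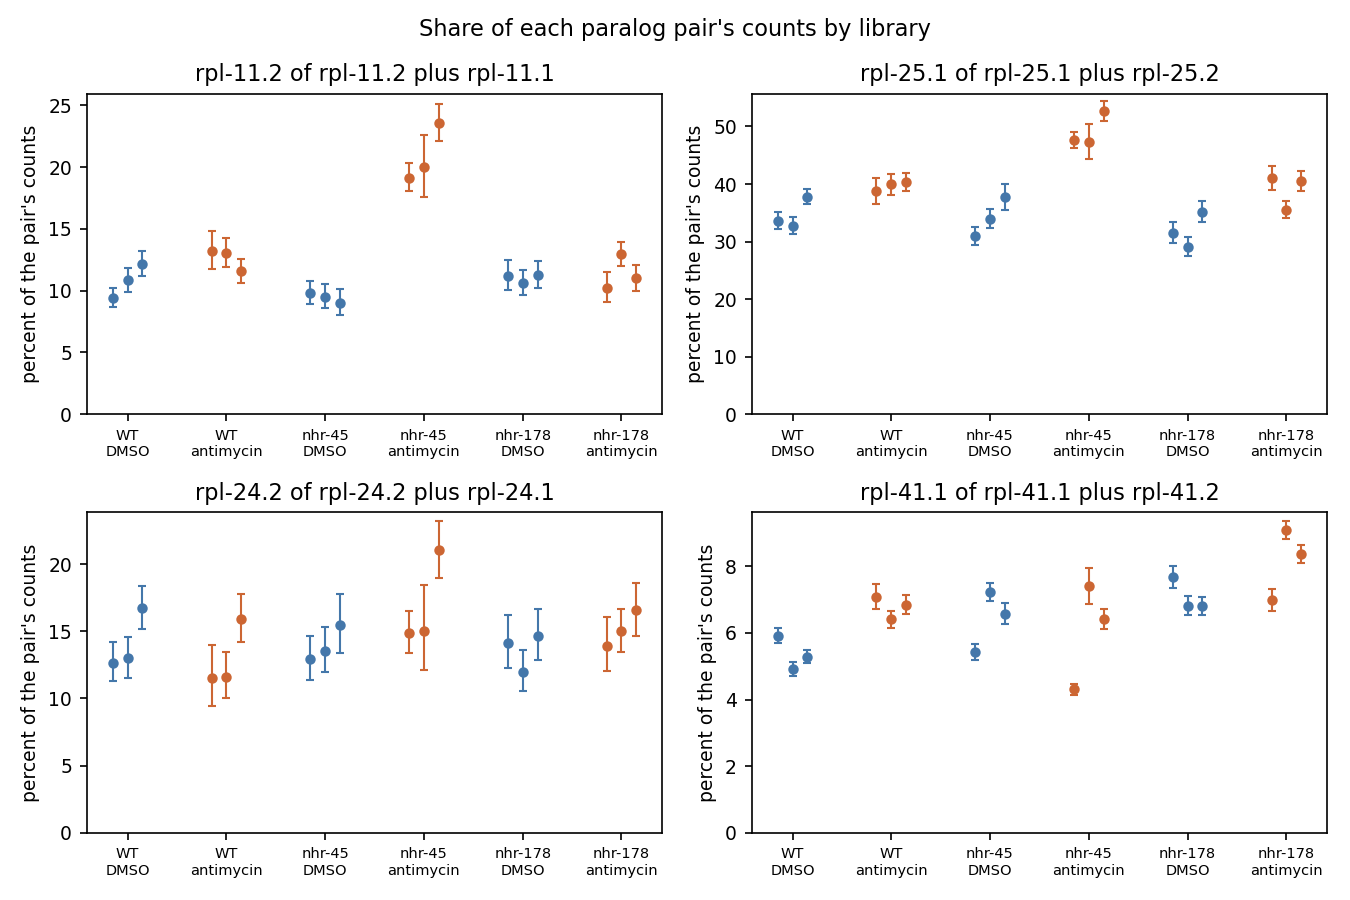
Share of each paralog pair's counts that came from the first-named gene, in percent, for each library by group; whiskers are 95% Wilson intervals (counting error only), blue is DMSO and orange antimycin. In nhr-45 antimycin rpl-11.2 takes 19.2% to 23.6% and rpl-25.1 47.4% to 52.7%, above their shares in the other 15 libraries.

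The third called gene, rpl-14 (WBGene00004426, I:9689197-9690081, plus strand), encodes a large subunit protein and shares exon bases with C04F12.5. It had 248, 297 and 177 CPM in nhr-45 DMSO and 290, 369 and 313 in nhr-45 antimycin. The groups overlap, and replicate 3 of nhr-45 DMSO was the lowest of all 18 libraries. The change was 0.42 ± 0.14 on the log2 scale (edgeR adjusted p = 0.0327). It was 0.23 and not called without that replicate (edgeR adjusted p = 0.232), and the call was also lost without replicate 2 or replicate 3 of nhr-45 antimycin, at 0.122 and 0.0617. In all, it held in 9 of 15 alternatives, and was lost with no filter (0.0544), with the compared groups only (0.103) and without both shallow libraries (0.126).

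By position, rpl-11.2 and rpl-25.1 are the only 2 of the 78 genes on the X chromosome, which holds 2.56% of the family and 14.5% of the genes tested. Chromosome I holds 29.5% of the family and 17.1% of the genes tested. In nhr-45 antimycin against DMSO, 23.1% of 1587 X-linked genes were called higher, against 13.9% of 9379 autosomal genes. The median log2 fold change was 0.31 on the X and -0.03 on the autosomes, with an upper quartile of 0.86 on the X. Both rpl-11.2 and rpl-25.1 lay above that quartile. In WT the X median was 0.03 and the autosomal median 0.01, and in nhr-178 they were 0.04 and -0.00. Whether position on the X has a part in the changes of rpl-11.2 and rpl-25.1 was not tested.

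Markers of sperm, moulting, oocytes and yolk were called in the same comparison at rates above the 15.2% higher and 8.33% lower of all genes. The filter on low counts used all 6 groups, so a sparse gene could be tested through nhr-45 antimycin alone. This can raise the shares of tested sperm and moulting genes called higher. In nhr-45 antimycin against DMSO, 31 of 32 tested sperm genes were called higher, and the summed level of the 39 listed was 107 to 161 CPM with DMSO and 760 to 928 with antimycin. All 13 tested moulting and cuticle genes were called higher, with a summed level of the 15 listed of 33.9 to 79.2 CPM with DMSO and 726 to 1431 with antimycin. Of the oocyte and eggshell genes 19 of 20 were called lower, with sums of 17349 to 19181 CPM and 11600 to 12854. General germline genes had 6 of 18 called lower, with sums of 5041 to 5628 CPM and 3762 to 4010. All 6 vitellogenin genes, which encode yolk proteins, were called lower, with sums of 5983 to 9302 CPM and 2299 to 3151.

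Of somatic markers, 7 of 11 tested intestinal genes were called higher (sums of 3058 to 3459 CPM and 4606 to 4924 over 12 genes). The muscle list had 4 of 13 called higher (12703 to 15803 CPM and 15351 to 18268), and the neuron list 2 of 13 (450 to 617 and 528 to 685), which is near the 15.2% of all genes. No listed marker was at 0 throughout nhr-45 antimycin, and msp-79 and spe-11 of the sperm list were at 0 throughout nhr-45 DMSO. The part of the marker shifts of nhr-45 in the changes of rpl-11.2, rpl-25.1 and rpl-14 was not tested.

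The same lists differed between nhr-45 and WT in antimycin, where 10.7% of all genes were called higher and 4.37% lower. The limit set by the filter on sparse genes applies here too. All 32 tested sperm genes were called higher in nhr-45, and their list summed to 46.6 to 71.2 CPM in WT antimycin, with msp-38 and msp-63 at 0 in all 3 libraries. All 13 tested moulting and cuticle genes were also called higher, with sums of 54.4 to 100.5 CPM in WT antimycin. Called lower were 9 of 20 oocyte and eggshell genes (15171 to 16099 CPM in WT antimycin), 5 of 6 vitellogenin genes (4703 to 5073) and 2 of 18 germline genes (4411 to 4880). Of the somatic lists, 4 of 11 intestinal, 3 of 13 muscle and 1 of 13 neuron genes were called higher, with 1 intestinal and 1 muscle gene lower. Their sums in WT antimycin were 4167 to 4833, 14878 to 16406 and 610 to 628 CPM. In the interaction of nhr-45 with antimycin, 3 of 32 sperm and 7 of 13 moulting genes were called higher and 3 of 6 vitellogenin genes lower, against 4.68% of all genes in either direction. That test called 0 of 20 oocyte and eggshell genes and 0 of 13 neuron genes. It called 1 of 18 germline and 1 of 13 muscle genes lower, and of 11 intestinal genes 2 higher and 1 lower. The part of these differences in those of rpl-11.2 and rpl-25.1 was not tested.

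Without antimycin, for nhr-45 against WT, 0 of 77 genes were called, against 1.54% of all genes, and DESeq2 called 0. At an unadjusted p under 0.05 there were 10, of which 9 were lower, against 10.9% of all genes. The family median was -0.08, the median of all genes 0.02, and 76 intervals lay within 2-fold. In 14 genes all 3 nhr-45 libraries lay below the WT libraries, against 7.42% of all genes, and in 0 all lay above, against 7.56%. These 14 are 18.2% of the family and come from the same 6 libraries. Replicate 1 of nhr-45 DMSO had the lowest family share, and without it the family median was -0.07. Without overlap, antimycin in WT had 4 genes lower and 6 higher, in nhr-45 1 and 8, and in nhr-178 10 and 2. For nhr-178 against WT there were 4 lower and 4 higher with DMSO. With antimycin there were 10 (13%) lower and 0 higher, against 10.6% and 9.84% of all genes. For nhr-45 against WT in antimycin there were 5 lower and 3 higher.

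For nhr-178 against WT in DMSO, edgeR and DESeq2 again called 0 of 77 genes, against 1.15% of all genes in edgeR. There were 5 at an unadjusted p under 0.05, against 10.1% of all genes. The family median was 0.01, and 76 intervals lay within 2-fold. The highest change was that of rpl-41.1, with 308, 274 and 289 CPM in WT and 421, 337 and 375 in nhr-178. The groups did not overlap, and the change of 0.38 ± 0.14 was not called (edgeR adjusted p = 0.315). Of the sperm list, 6 of 32 tested genes were called lower in nhr-178, where the list summed to 1.74 to 8.94 CPM. The intestinal, moulting, muscle and neuron lists had 1 gene called lower each, and the intestinal list also 1 higher.

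With antimycin, nhr-45 against WT called 2 of 77 genes higher, rpl-11.2 and rpl-25.1, and 0 lower, against 10.7% and 4.37% of all genes. The family median was -0.02 and 76 intervals lay within 2-fold. For nhr-178 against WT in antimycin, edgeR and DESeq2 called 0 of 77, against 3.63% of all genes in edgeR. There 7 genes, all lower, had an unadjusted p under 0.05, against 15.6% of all genes. The family median was -0.08, with 61 of 77 genes below 0. Of the marker lists, 4 of 13 muscle, 6 of 32 sperm and 1 of 13 neuron genes were called lower there. The muscle list summed to 9652 to 10419 CPM in nhr-178 antimycin and 14878 to 16406 in WT antimycin. Called higher were 2 of 20 oocyte and eggshell genes, and 1 of 11 intestinal genes was called each way. The part of these differences in the family's levels was not tested. The interaction of nhr-178 with antimycin called 0 in edgeR and in DESeq2, against 0.264% of all genes in edgeR, with 3 at an unadjusted p under 0.05 against 8.25%.

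Leaving aside rpl-11.2, rpl-25.1 and rpl-37, the log2 fold changes of the other 74 genes over the 7 direct comparisons lay between -0.46 (rpl-35, antimycin in WT) and 0.45 (rpl-24.2, nhr-45 against WT in antimycin). The biological coefficient of variation estimated by edgeR had a median of 12.2% over the 77 genes. Over 1109 others in the same range of level it was 12.3%. As edgeR draws each estimate toward a trend over genes of like level, these medians cannot show whether the spread between replicates differs. The most variable member was the sparsely counted rpl-37, at 32.2%.

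Across the 18 libraries, the genes partly moved together. Pearson's r between a gene and the mean log2 level of the tested family had a median of 0.451, from -0.316 for rpl-13 to 0.858 for rps-2, and each gene is part of that mean. Outside the rule, the 5 genes most like the family mean were twnk-1 (0.834), rla-0 (0.757), C05D12.7 (0.747), flp-8 (0.720) and sta-1 (0.713). They are the top of 10904 other tested genes, whose median r was -0.001. Of them, twnk-1 and C05D12.7 were sparsely counted, at means of 4.31 and 3.70 CPM. These r values describe libraries that share scaling and groups. Of the 5, rla-0 encodes the stalk protein P0 of the large subunit.

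The 6 other cytosolic ribosomal genes, rla-0, rla-1 and rla-2 of the stalk, ubl-1 and ubq-2, which encode a ribosomal protein fused to ubiquitin or a ubiquitin-like part, and rack-1 of the small subunit, had 0 calls in all 9 comparisons. For example, rla-0 had 852, 965 and 972 CPM in nhr-45 DMSO and 956, 942 and 1031 in nhr-45 antimycin (log2 0.07 ± 0.12, edgeR adjusted p = 0.695).

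Among the elongation factors, too, 1 gene of a paralog pair was called and the other was not. In treated nhr-45 mutants, 2 of 8 listed genes were called higher, eef-1A.2 and iff-2, and 0 lower, against 15.2% and 8.33% of all genes, with a list median of 0.01. The X-linked gene eef-1A.2 (X:7823654-7825769), which delivers aminoacyl-tRNA, had 134, 107 and 97.6 CPM in nhr-45 DMSO and 214, 201 and 206 in nhr-45 antimycin. The groups did not overlap (log2 0.87 ± 0.14, edgeR adjusted p = 3.92e-05). Its autosomal partner eef-1A.1 (III:6970026-6971712) had 2074, 1957 and 2853 CPM and 2047, 2075 and 2118, which overlap (log2 -0.14 ± 0.16).

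The eIF5A genes iff-1 and iff-2 are known to serve mainly the germ line and the soma. In nhr-45 DMSO, iff-2 (II:8559375-8561367) had 629, 594 and 578 CPM, and in nhr-45 antimycin 1228, 1439 and 1102, all above every other library (log2 1.06 ± 0.12, edgeR adjusted p = 1.57e-07). Its response exceeded that of WT by 0.95 ± 0.17 (edgeR adjusted p = 0.000698). For iff-1 (III:9745862-9747193) the values were 600, 598 and 743 CPM and 547, 473 and 563, with all treated libraries lower, but the change of -0.29 ± 0.15 was not called (edgeR adjusted p = 0.162). As iff-2 lies on chromosome II, the called genes of these pairs were not all X-linked. The difference between the genes of these elongation factor pairs was not tested.

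Other translation lists gave few calls. Of 23 initiation factors, 2 were called lower with antimycin in WT (eif-3.F by -0.999 and inf-1, which encodes eIF4A, by -0.40 on the log2 scale) and 2 in nhr-45 (ife-3, which encodes a cap-binding eIF4E, by -0.42 and egl-45, a subunit of eIF3, by -0.36), with 0 called higher. All genes gave 3.01% called in either direction in WT and 8.33% called lower in nhr-45, so the count in nhr-45 is near the background. The list medians were -0.07 and -0.18. Of 27 ribosome biogenesis genes, 1 was called in any comparison, nol-9, lower by -0.90 with antimycin in nhr-45 (edgeR adjusted p = 0.0138). Of 20 cytosolic aminoacyl-tRNA synthetases, which charge tRNAs, 2 were called lower with antimycin in nhr-45 (aars-2 by -0.66 and cars-1 by -0.44), again near the 8.33% of all genes, 0 in WT and 0 in nhr-178. Between nhr-45 and WT in antimycin, 4 of the 20 synthetase genes were called lower, against 4.37% of all genes, led by fars-1 (-0.57) and tars-1 (-0.52). In nhr-178 against WT, 1 of the 20 was called lower with DMSO, kars-1 (-0.65). With antimycin 2 were called lower, rars-1 (-0.48) and kars-1 (-0.45). All genes gave 1.15% and 3.63% called in either direction in these comparisons. For nhr-178 against WT in antimycin, eif-3.F was called higher (0.88). Over 15 alternatives, the calls of eif-3.F in WT, aars-2 and fars-1 held in 15, that of nol-9 in 13, ife-3 in 8, tars-1 in 7, egl-45 and cars-1 in 6 each and inf-1 in 4. The call of eif-3.F in nhr-178 held in 12, and those of kars-1 in 14 with DMSO and in 5 with antimycin. That of rars-1 held in 7.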

How the data were processed

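The authors deposited a table of whole-number counts per gene. The submitters' processing notes list R 3.6.3, DESeq2, RSEM and Bowtie2 without their roles. The authors' genome build, annotation, strand setting and treatment of multi-mapping reads: not given in the sources used here. Positions and exon lengths come from WBcel235, joined by identifier for 23363 of 23368 genes. Members and lists were chosen with earlier results of these data known.

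Counts were tested in edgeR 4.0.16 (R 4.3.3): all 18 libraries, 1 mean per group, TMM scaling, filterByExpr, quasi-likelihood test, 10981 genes, 12 residual degrees of freedom. Adjusted p is Benjamini-Hochberg over all genes within a comparison, called below 0.05, two-sided. The interaction is the response of a mutant minus that of WT. Genes named were the 3 highest and 3 lowest per kb, paralogs, up to 3 called each way per comparison and the 3 nearest the median. Also named were the untested gene, 5 most alike, the other ribosomal and elongation genes and up to 2 called per other list. The genes rpl-35, rps-25, rpl-3, rpl-4, rpl-28, rpl-32 and rpl-34 were added after their values were seen. The test was checked on simulated counts. Alternatives were 3 scalings, 2 filters, DESeq2 1.42.0, a replicate block, compared groups only and libraries left out.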

Additional observations from a re-analysis of the deposited data

Results flagged for a closer look

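The response of rpl-25.1 to antimycin differed between nhr-45 and WT by the interaction test: the log2 difference of the responses, nhr-45 minus WT, was 0.67 (edgeR adjusted p = 0.0411), with log2 fold changes of 0.90 in nhr-45 and 0.23 in WT. All 3 treated nhr-45 libraries were higher than the 3 untreated ones. The call held in 8 of 21 alternatives and in 2 of the 12 that left out 1 library, and was also lost with no filter, with the compared groups only and without both shallow libraries.

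The response of the elongation factor gene iff-2 differed in the same way, by 0.95 on the log2 scale (edgeR adjusted p = 0.000698), with log2 fold changes of 1.06 in nhr-45 and 0.12 in WT, and its call held in 21 of 21 alternatives.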

How the results depend on the processing

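The calls of rpl-11.2 and rpl-25.1 for antimycin in nhr-45 held in 15 of 15 alternatives each, with log2 fold changes of 0.94 to 1.13 and 0.81 to 0.98. Against WT in antimycin, rpl-11.2 lost its call without replicate 3 of WT antimycin (0.0785) or of nhr-45 antimycin (edgeR adjusted p = 0.0718). The count for antimycin in nhr-45 was 2 in place of 3 with no filter, with compared groups only and without both shallow libraries, each time without rpl-14. It was 4 with scaling by total counts only and with the stricter filter, each time with rpl-34 called higher. The log2 fold change of rpl-34 was 0.35 and 0.37 there (edgeR adjusted p = 0.0466 and 0.0316). Without the filter, the counts of called ribosomal protein genes were 2 (rpl-9 and rpl-35, lower) for antimycin in WT, 2 (rpl-9 lower, rps-25 higher) for nhr-45 against WT in DMSO, 1 for the same contrast in antimycin and 0 for the interaction of nhr-45. DESeq2 gave 2 for that interaction (rpl-11.2 and rpl-25.1). With compared groups only the counts were 1 for antimycin in WT (rpl-35) and 0 for the interaction. Without both shallow libraries, replicate 1 of WT antimycin and replicate 2 of nhr-45 antimycin, they were 1 (rpl-9) and 0, rpl-3 and rpl-32 were called higher for nhr-45 against WT in antimycin, and the log2 ratio of the summed level there was 0.057 in place of -0.02. Leaving out 1 library gave counts of 0 to 1 for antimycin in WT (rpl-9) and 2 to 4 in nhr-45 (rpl-28 lower among them). They were 0 to 1 for nhr-178 against WT in DMSO (rpl-35 or rpl-4). For nhr-45 against WT in antimycin they were 0 to 2 (with rpl-3 once), and for the interaction of nhr-45 0 to 1. The gene called in that interaction was rpl-25.1 in 2 fits. Without replicate 2 of nhr-45 DMSO it was rpl-14 (0.72, edgeR adjusted p = 0.0336). The cause of these moves was not tested. With a replicate block, counts were 3 for antimycin in nhr-45, 2 for nhr-45 against WT in antimycin, 1 for the interaction of nhr-45 and 0 elsewhere, as without it. Whether same-numbered libraries shared a culture or batch is not stated. Their deviations correlated at r from -0.0858 to 0.0872, against -0.1 to 0.0754 for libraries of other numbers. Of 18 libraries, 9 correlated best with their own number. As the 2 ranges of r overlap, these values cannot decide whether equal numbers mark a shared batch. No called value changed sign in these alternatives. Depth limits rpl-37 and rpl-42 most.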
